A study of Saccharomyces cerevisiae with 4 samples.

Results

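The 10 genes described here encode the enzymes with which budding yeast (Saccharomyces cerevisiae) makes and breaks down glycogen. They were chosen by name, as GSY1, GSY2, GPH1, GDB1, GLC3, GLG1, GLG2, UGP1, PGM1 and PGM2, from a table of 7445 features, and all 10 passed the filter on low counts that left 6372 features for testing. RNA was sequenced from exponentially growing W303 cells (25°C, YPDA medium, OD600 of 0.8) in 2 libraries of a trf4::HphMX4 strain, written trf4Δ below, and 2 libraries of the wild type. Trf4 is the poly(A) polymerase that, within TRAMP, tags nuclear transcripts for the exosome, and in trf4Δ a hygromycin resistance cassette stands in its place. The labels list no other allele or agent for either group. They do not say whether the libraries of a group came from separate cultures or transformants, so the p-values measure the spread between these libraries, which may be technical.

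Glycogen is a branched polymer of glucose that yeast stores when growth slows or nutrients run short, and uses later. Glucose 6-phosphate is turned into glucose 1-phosphate by phosphoglucomutase (PGM1, PGM2) and then into UDP-glucose by UGP1. The glycogenin-like proteins of GLG1 and GLG2 start a chain by adding glucose to themselves, glycogen synthase (GSY1, GSY2) lengthens it, and the branching enzyme of GLC3 adds side chains. Glycogen phosphorylase (GPH1) and the debranching enzyme (GDB1) take the polymer apart again.

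Library totals ran from 53516242 to 57964567 counts. TRF4 (YOL115W) had 21 and 40 counts in the deletion libraries but 8102 and 8468 in those of the wild type, so the libraries followed their labels. Genes specific to MATa cells (MFA1, MFA2, STE2, BAR1, AGA2) summed to 677 and 613 CPM in trf4Δ, compared with 928 and 921 CPM in wild-type cells, and 4 of the 5 were called lower (median of the 5, -0.43 on the log2 scale). Genes specific to MATα cells (MF(ALPHA)1, MF(ALPHA)2, STE3, SAG1) summed to 42.1 and 48.1 CPM in trf4Δ, compared with 28.3 and 31.2 CPM in wild-type cells, and 2 of the 4 were called higher, STE3 by 2.22 and SAG1 by 0.50. None of these 9 genes was at 0 in any library, and the MATa sum was the larger in each library. CPM is a count scaled to its library size, here after TMM, edgeR's correction for library composition. The markers of meiosis IME1, IME2, NDT80 and SPO11 summed to 74.0 and 76.0 CPM in trf4Δ and to 43.4 and 46.3 CPM in the wild type. All 4 were called higher in trf4Δ. Such calls were common in these data, with 31.3% of all features tested called higher and 28.9% lower. The part of these marker changes in the results below was not tested.

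All 10 genes have a single coding segment in the R64 annotation, the assembly also called sacCer3, and no annotated gene overlaps any of them. GLG1 (YKR058W) lies at chrXI:552770-554620 and GLG2 (YJL137C) at chrX:154985-156127. The synthase genes are GSY1 (YFR015C) at chrVI:174265-176391 and GSY2 (YLR258W) at chrXII:660716-662833, and GLC3 (YEL011W) lies at chrV:133120-135234. GPH1 (YPR160W) and GDB1 (YPR184W) share an arm, at chrXVI:861306-864014 and chrXVI:902044-906654. PGM1 (YKL127W) at chrXI:203541-205253 and UGP1 (YKL035W) at chrXI:369891-371390 lie on another, and PGM2 (YMR105C) at chrXIII:475897-477606. Despite the paralogous pairs, 0 of the 76-base windows of any of the 10 genes occurred elsewhere in the R64 genome, so an error-free read of the length sequenced could be placed in each case. That check used the S288C reference, from which W303 differs at some positions.

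Upstream sequence is shown for 4 of the genes, to set the isozymes PGM2 and PGM1 side by side and to give the windows of GPH1 and GLC3, from RefSeq (R64) in the sense of each gene. Capitals mark AGGGG or its reverse complement CCCCT, the letters of the stress response element bound by the transcription factors Msn2 and Msn4. The PGM2 and PGM1 stretches run from base 450 to base 151 before the start codon (chrXIII:477757-478056, minus strand, and chrXI:203091-203390, plus strand). Those of GPH1 and GLC3 run from base 400 to base 101 (chrXVI:860906-861205 and chrV:132720-133019, both plus strand).
PGM2: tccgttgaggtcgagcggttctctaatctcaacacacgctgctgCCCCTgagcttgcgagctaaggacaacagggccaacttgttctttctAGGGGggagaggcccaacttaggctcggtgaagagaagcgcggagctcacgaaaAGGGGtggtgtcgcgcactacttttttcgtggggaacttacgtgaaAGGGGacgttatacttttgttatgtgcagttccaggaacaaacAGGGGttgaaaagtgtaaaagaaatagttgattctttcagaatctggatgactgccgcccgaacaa
PGM1: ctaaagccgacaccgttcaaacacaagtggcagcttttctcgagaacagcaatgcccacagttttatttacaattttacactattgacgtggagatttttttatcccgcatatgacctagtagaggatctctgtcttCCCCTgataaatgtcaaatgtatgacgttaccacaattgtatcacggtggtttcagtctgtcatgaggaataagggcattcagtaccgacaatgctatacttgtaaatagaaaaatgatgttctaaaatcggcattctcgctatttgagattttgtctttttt
GPH1: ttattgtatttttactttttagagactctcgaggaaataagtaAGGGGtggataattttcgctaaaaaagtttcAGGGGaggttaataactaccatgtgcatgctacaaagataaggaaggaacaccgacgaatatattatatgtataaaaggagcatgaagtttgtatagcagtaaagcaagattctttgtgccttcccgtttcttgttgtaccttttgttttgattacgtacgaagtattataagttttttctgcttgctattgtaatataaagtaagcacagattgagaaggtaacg
GLC3: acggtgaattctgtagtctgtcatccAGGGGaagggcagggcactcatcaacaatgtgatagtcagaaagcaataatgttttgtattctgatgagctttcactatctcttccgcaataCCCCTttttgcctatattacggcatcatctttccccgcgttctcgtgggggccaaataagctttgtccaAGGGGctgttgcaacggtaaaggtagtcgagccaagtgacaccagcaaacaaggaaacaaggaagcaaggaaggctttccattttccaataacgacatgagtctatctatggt
The stretch of PGM2 held 5 matches and that of PGM1 held 1, while GPH1 had 2 and GLC3 had 3. Matches outside these stretches are not shown. In the 600 bases before the start codon, PGM2 had 6, and PGM1, GPH1 and GLC3 had 3 each, given below with the share over all genes.

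When trf4Δ was set against the wild type, 7 of the 10 genes rose and 0 fell. They were PGM2, GPH1, GSY1, GLC3, GSY2, GDB1 and GLG1, with levels between 2.68-fold and 8.36-fold those of the wild type. GLG2, UGP1 and PGM1 did not pass the test. The count of 0 for genes that fell was the same at an unadjusted p under 0.05 and with DESeq2. Thus at least 1 gene rose at the steps of initiation, elongation, branching, phosphorolysis, debranching and phosphoglucomutase, and the step from glucose 1-phosphate to UDP-glucose, which UGP1 alone serves in this list, had no call. The quasi-likelihood test of edgeR was used, with p-values adjusted by Benjamini-Hochberg over all 6372 features and a threshold of 0.05. It called 31.3% of all features higher, 28.9% lower and 60.1% in either direction. A change of at least 2-fold upward was called for 15.5% of features, and all 7 of the genes that rose were of that size. The median log2 fold change of the 10 genes was 1.57, beside 0.01 over all features tested. Under scaling by library size alone, which moved the median of all features from 0.01 to 0.34, all 10 genes were called higher and their median was 1.89. Of all features called, 52.0% were higher with TMM and 81.1% with library size alone. In bulk RNA a change in every cell and a change in the share of cells that express a gene cannot be told apart.

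**Figure D1:**
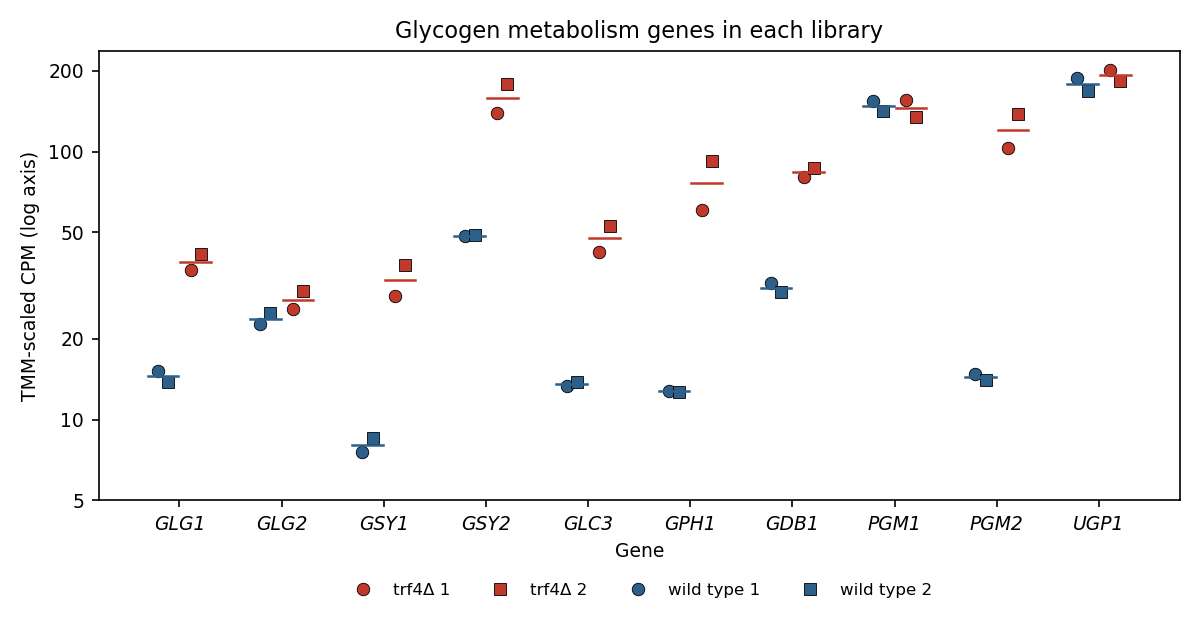
TMM-scaled CPM (log axis) of the 10 glycogen genes in each of the 4 libraries, with circles for the first and squares for the second library of a group and a line at each group mean (n = 2). The trf4Δ libraries sit well above the wild type for 7 genes, while UGP1 and PGM1 overlap and GLG2 has a narrow gap.

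Phosphoglucomutase supplies glucose 1-phosphate, and its isozyme gene PGM2 had the largest change of the 10. PGM2 had counts of 6219 and 8285 in trf4Δ and of 754 and 720 in wild-type cells, which is 103 and 138 CPM against 14.8 and 14.0 CPM. The lower trf4Δ library was far above both wild-type libraries. The log2 fold change was 3.06 (SE 0.15, adjusted p 1.08e-05 by edgeR), rank 82 of all features tested. PGM1, the other isozyme gene, had 9421 and 8127 counts in the trf4Δ libraries, compared with 7870 and 7247 in wild-type cells. Its scaled levels, 156 and 135 CPM against 155 and 141 CPM, overlapped between the groups. The log2 fold change of PGM1 was -0.02, with a 95% interval from -0.26 to 0.22 (edgeR adjusted p 0.875). With library size alone it was 0.30 (edgeR adjusted p 0.0449), and without the second trf4Δ library or the first wild-type library it was 0.08 or 0.05, neither called.

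UGP1 makes UDP-glucose, which also feeds trehalose, cell wall glucan and glycosylation. Its counts were 12158 and 11070 in trf4Δ, compared with 9599 and 8639 in wild-type cells. After scaling these were 202 and 184 CPM against 188 and 168 CPM, and the groups overlapped. The log2 fold change was 0.11, with a 95% interval from -0.11 to 0.34 (edgeR adjusted p 0.338), and 0.43 (edgeR adjusted p 0.00831) with library size alone.

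The initiators GLG1 and GLG2 differed in their calls. GLG1 had counts of 2186 and 2489 in trf4Δ and of 773 and 711 in wild-type cells, or 36.3 and 41.4 CPM against 15.2 and 13.9 CPM, without overlap. Its log2 fold change was 1.42 (SE 0.12, edgeR adjusted p 7.68e-05). GLG2 had 1559 and 1818 counts in the trf4Δ libraries, compared with 1154 and 1282 in wild-type cells. The scaled values of GLG2, 25.9 and 30.2 CPM against 22.7 and 25.0 CPM, did not overlap but lay close together. Its log2 fold change of 0.24 had a 95% interval from -0.05 to 0.52 (edgeR adjusted p 0.134), and with library size alone the value was 0.56 (edgeR adjusted p 0.00529). Groups without overlap were found for 8 of the 10 genes and for 81.9% of all features tested, so the lack of overlap by itself sets these genes apart little.

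Both glycogen synthase genes rose. GSY2, the major isoform, had counts of 8391 and 10712 in trf4Δ and of 2468 and 2504 in wild-type cells. That is 139 and 178 CPM against 48.5 and 48.8 CPM, with a log2 fold change of 1.71 (SE 0.13, edgeR adjusted p 4.13e-05). GSY1, the minor isoform, had 1743 and 2263 counts in the trf4Δ libraries, compared with 386 and 440 in wild-type cells. In CPM the values of GSY1 were 28.9 and 37.6 against 7.58 and 8.57, and the log2 fold change was 2.04 (SE 0.16, edgeR adjusted p 5.48e-05). For both genes the trf4Δ libraries lay further apart than the wild-type libraries, with the second trf4Δ library higher. The log2 ratio of the second wild-type library to the first was 0.0096 for GSY2 but 0.18 for GSY1, the widest wild-type gap of the glycogen genes. The branching enzyme gene GLC3 had counts of 2540 and 3181 in trf4Δ and of 677 and 709 in wild-type cells, or 42.2 and 52.9 CPM against 13.3 and 13.8 CPM. Its log2 fold change was 1.81 (SE 0.14, edgeR adjusted p 4.43e-05).

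The genes of glycogen breakdown rose as well. GPH1, which releases glucose 1-phosphate from chain ends, had 3634 and 5556 counts in the trf4Δ libraries, compared with 654 and 649 in wild-type cells. This corresponded to 60.3 and 92.3 CPM against 12.8 and 12.6 CPM, and to a log2 fold change of 2.58 (SE 0.20, edgeR adjusted p 4.65e-05), rank 150 of all features. GDB1, which removes the branches that phosphorylase cannot pass, had counts of 4856 and 5217 in trf4Δ and of 1645 and 1533 in wild-type cells. Its levels were 80.6 and 86.7 CPM against 32.3 and 29.9 CPM, and the log2 fold change was 1.43 (SE 0.10, edgeR adjusted p 3.24e-05). Genes that build the polymer and genes that degrade it therefore moved in the same direction. Within each library the log2 ratio of GPH1 to GSY2 per coding length was -1.56 and -1.30 in trf4Δ, compared with -2.27 and -2.30 in wild-type cells. This ratio, chosen after the values were seen, was higher in both trf4Δ libraries, by 0.85 on average (exact two-sided permutation p 0.333, the smallest that 2 against 2 libraries allow).

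**Figure D2:**
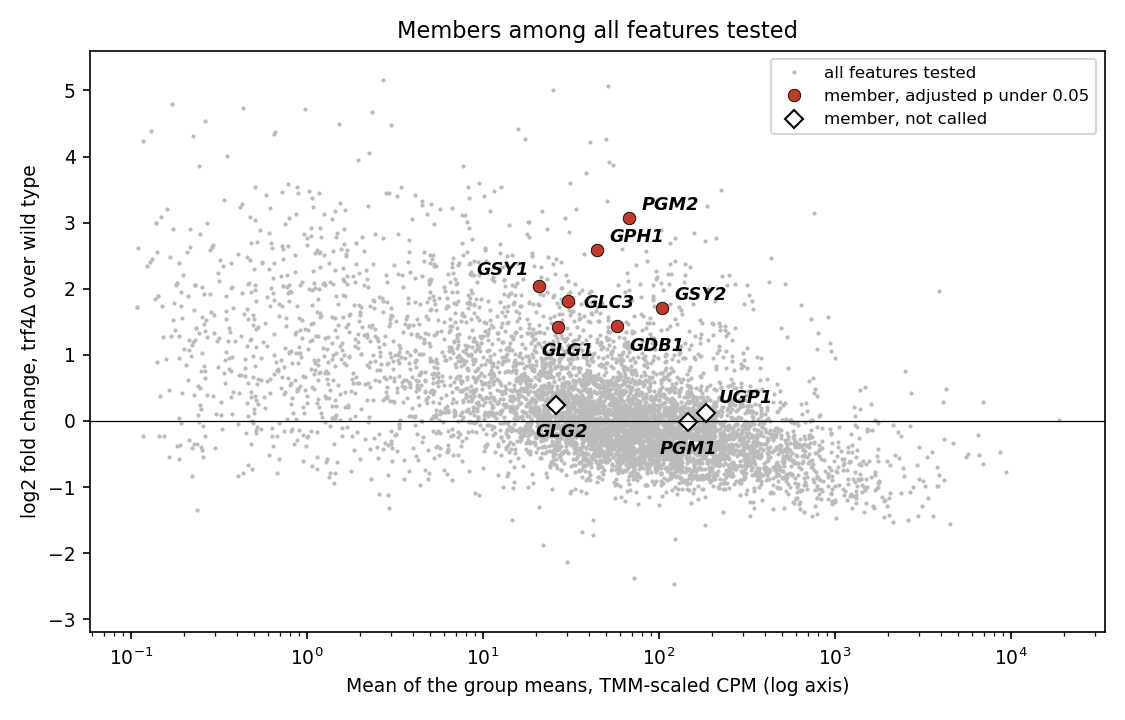
log2 fold change of trf4Δ over the wild type against mean TMM-scaled CPM (log axis) for the features tested, with the 10 glycogen genes marked as called (filled circles) or not called (open diamonds). The 7 genes that rose lie between 1.42 and 3.06, while GLG2, UGP1 and PGM1 lie within the bulk of features near 0; TRF4, at -8.31, falls below the axis.

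Apart from GSY2, the genes that rose had lower levels per length in the wild type than the 3 without a call. Levels per kb of coding length, as TMM-scaled CPM per kb, were highest for UGP1 (119 ± 9.51, SD, n = 2) and PGM1 (86.3 ± 5.51, SD, n = 2), followed by GSY2 (23.0 ± 0.108, SD, n = 2) and GLG2 (20.8 ± 1.43, SD, n = 2). PGM2 (8.43 ± 0.322, SD, n = 2), GLG1 (7.84 ± 0.507, SD, n = 2), GDB1 (6.74 ± 0.373, SD, n = 2) and GLC3 (6.41 ± 0.174, SD, n = 2) came next, then GPH1 (4.70 ± 0.0516, SD, n = 2) and GSY1 (3.80 ± 0.330, SD, n = 2). In this wild-type order GDB1 and GLC3 overlapped, and no other neighbours did.

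In trf4Δ the order changed. UGP1 (129 ± 8.43 CPM per kb, SD, n = 2) stayed highest and GSY1 (15.6 ± 2.88 CPM per kb, SD, n = 2) lowest. PGM2 moved up to 70.5 ± 14.2 CPM per kb (SD, n = 2), beside GSY2 at 74.9 ± 12.9 CPM per kb (SD, n = 2) and PGM1 at 85.1 ± 8.81 CPM per kb (SD, n = 2), and the libraries of these 3 genes overlapped. GPH1 (28.2 ± 8.35 CPM per kb, SD, n = 2) moved above GLG2 (24.5 ± 2.68 CPM per kb, SD, n = 2). Their libraries overlapped each other and those of GLC3 (22.5 ± 3.58 CPM per kb, SD, n = 2). GPH1 and GLC3 also overlapped GLG1 (21.0 ± 1.94 CPM per kb, SD, n = 2). GDB1 (18.1 ± 0.933 CPM per kb, SD, n = 2) lay below GLG1 without overlap and overlapped GSY1.

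The 3 isozyme pairs were then compared by the ratio of their levels within each library, which does not depend on scaling between libraries. The log2 ratio of PGM2 to PGM1 per coding length was -0.60 and 0.03 in trf4Δ, compared with -3.38 and -3.33 in wild-type cells, a difference of 3.07. PGM2 made up 39.8% and 50.5% of the pair in trf4Δ, compared with 8.76% and 9.05% in wild-type cells. The libraries of trf4Δ thus differed from each other in this share, but by less than their distance from the wild type. For GLG1 to GLG2 the log2 ratio was -0.21 and -0.24 in trf4Δ, compared with -1.27 and -1.55 in wild-type cells, a difference of 1.18. GLG1 rose from 29.3% and 25.5% of its pair to 46.4% and 45.8%. The log2 ratio of GSY2 to GSY1 was 2.27 and 2.25 in trf4Δ, compared with 2.68 and 2.51 in wild-type cells, a difference of -0.34, and GSY2 held 82.9% and 82.6% of the pair in trf4Δ against 86.5% and 85.1%. In no pair did the groups overlap. Each exact two-sided permutation p was 0.333 (0.333 after adjustment over the 3 pairs), the smallest that 4 libraries allow, so these shifts cannot pass a threshold of 0.05 by that test.

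Summed levels of the pairs also differed between the groups. GSY1 and GSY2 together reached 90.6 ± 15.8 CPM per kb (SD, n = 2) in trf4Δ and 26.8 ± 0.438 CPM per kb (SD, n = 2) in the wild type. PGM1 and PGM2 together reached 156 ± 5.43 CPM per kb (SD, n = 2) against 94.7 ± 5.83 CPM per kb (SD, n = 2), a ratio of 1.64. The sum of GLG1 and GLG2 was 45.5 ± 4.62 CPM per kb (SD, n = 2) against 28.7 ± 0.927 CPM per kb (SD, n = 2), a ratio of 1.59. The larger rises of PGM2 and GLG1 were therefore diluted in their pairs by a partner of similar or higher level without a call, whereas the ratio of 3.39 for the synthase pair was close to the change of its major gene.

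**Figure D3:**
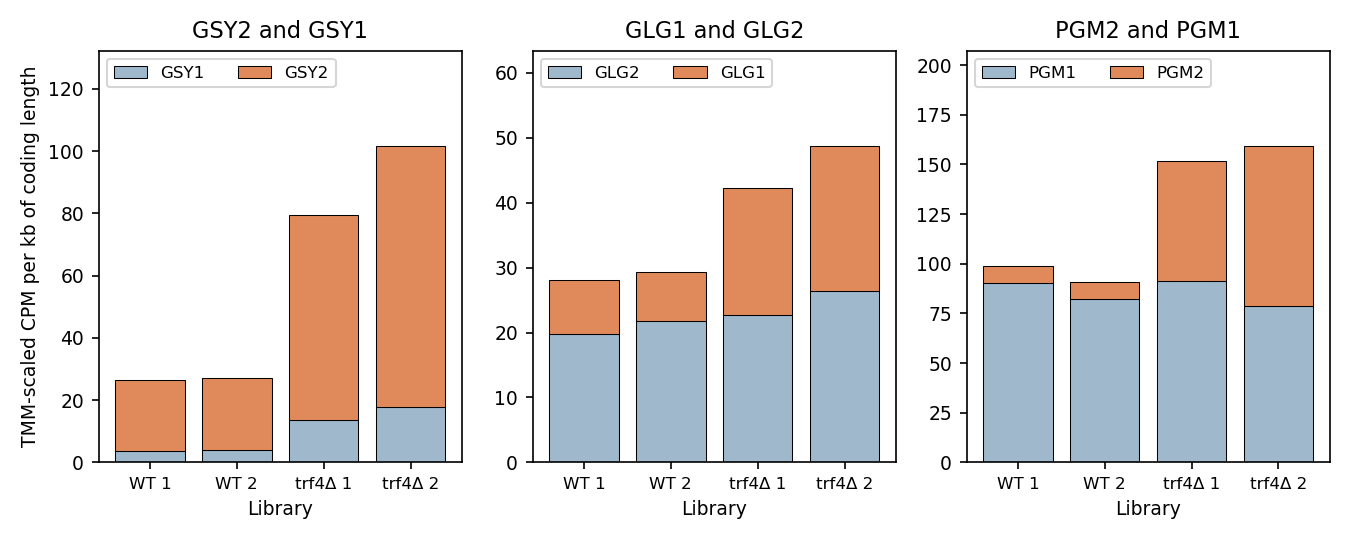
Stacked levels (TMM-scaled CPM per kb of coding length) of the isozyme pairs GSY2 and GSY1, GLG1 and GLG2, and PGM2 and PGM1 in each library, each bar starting at 0. PGM2 takes 8.76% and 9.05% of its wild-type bars but 39.8% and 50.5% of the trf4Δ bars, while the PGM1 part stays alike.

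The trf4Δ libraries differed from each other more than the wild-type libraries did in 8 of the 10 genes, the exceptions being GDB1 and UGP1. The second trf4Δ library was higher than the first for 7 of the 7 genes that rose, by a log2 ratio of 0.10 (GDB1) to 0.61 (GPH1). Over all features tested that ratio had a median of 0.02, an upper quartile of 0.16 and a 95th percentile of 0.47. GPH1 lay beyond the 95th percentile. PGM2 (0.42), GSY1 (0.38), GSY2 (0.35), GLC3 (0.33) and GLG1 (0.19) lay between the upper quartile and the 95th percentile, and GDB1 lay below the upper quartile. Most of the genes that rose thus differed between the trf4Δ libraries by more than most features did. UGP1 and PGM1 were lower in the second trf4Δ library, at -0.13 and -0.21. Between the wild-type libraries the log2 ratio of the 10 genes ran from -0.16 to 0.18. Leaving out the first or the second trf4Δ library moved the median of the 10 genes to 1.69 or 1.45, and all 7 calls were kept.

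Enzymes and scaffolds that set the activity of glycogen synthase were taken as further lists. Glc7 is the protein phosphatase that activates glycogen synthase, and targeting subunits bring it to glycogen. Of GLC7 and 5 genes of its subunits and regulators, 4 rose, 1 fell and 1 was not called, with a median log2 fold change of 0.60. Of all features tested, 31.3% were called higher and 28.9% lower. GIP2, a putative targeting subunit, had 1764 and 2238 counts in the trf4Δ libraries, compared with 363 and 462 in wild-type cells, a log2 fold change of 2.04 (SE 0.17, edgeR adjusted p 7.23e-05). GAC1, the best known of the targeting subunits, had 2277 and 2810 counts against 777 and 630, and rose by 1.62 (SE 0.16). PIG2 rose by 0.83 and GLC8, a Glc7 activator, by 0.38, while PIG1 had a value of -0.19 (95% interval -0.53 to 0.15). GLC7 itself had 27612 and 28743 counts against 28532 and 29738, and a log2 fold change of -0.28 (edgeR adjusted p 0.0239). It was not called without the first trf4Δ library (-0.26, edgeR adjusted p 0.0699), the first wild-type library (-0.30, 0.0919) or the second wild-type library (-0.25, 0.151), although the value changed little, and it was 0.04 with library size alone. The subunit genes GIP2 and GAC1 thus moved with the synthase genes, while the gene of the catalytic subunit had a small value of the other sign.

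Of 7 kinase and cyclin genes linked to the control of glycogen synthesis, 4 rose, 0 fell and 3 were not called, with a median of 0.28. Over all features tested, 60.1% were called in either direction and 31.3% higher. The cyclin-dependent kinase gene PHO85 rose by 0.55 (SE 0.09) and the cyclin gene PCL8, whose product directs Pho85 to Gsy2, by 0.57 (SE 0.11). The PAS kinase genes PSK1 and PSK2 rose by 0.47 and 0.27. PSK2 was not called without the second trf4Δ library (0.18, edgeR adjusted p 0.164), the first wild-type library (0.28, 0.109) or the second (0.28, 0.111). PCL10 (0.28), PCL7 (0.23) and PCL6 (0.13) did not pass. PCL10 passed without the first trf4Δ library (0.37, edgeR adjusted p 0.0395) and with at least 10 counts in every library (0.30, 0.0491). With library size alone all 3 passed, at 0.60 (edgeR adjusted p 0.00225), 0.56 (0.00228) and 0.45 (0.00543), so that 7 of 7 were called. All 7 values under TMM were smaller than that of any of the 7 glycogen genes that rose.

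SGA1, an intracellular glucoamylase known from sporulating cells, had counts of 594 and 576 in trf4Δ and of 179 and 190 in wild-type cells. It rose by 1.43 (SE 0.18, edgeR adjusted p 0.000374), at a level of 9.72 ± 0.204 CPM (SD, n = 2) against 3.61 ± 0.132 CPM (SD, n = 2). The meiosis markers given above rose beside it, by 0.60 (IME2) to 1.67 (SPO11).

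The kinases that make glucose 6-phosphate also divided. GLK1 had 11200 and 10492 counts in the trf4Δ libraries, compared with 1238 and 1247 in wild-type cells, and rose by 2.89 (SE 0.09, edgeR adjusted p 2.02e-06). HXK1 rose by 2.60 (SE 0.17), with 5255 and 7435 counts beside 937 and 842. HXK2, the main hexokinase gene of cells growing on glucose, fell by 0.44 (SE 0.09, edgeR adjusted p 0.00481), from 49490 and 46099 counts to 41359 and 41582. The call of HXK2 was lost with library size alone (-0.12, edgeR adjusted p 0.313) and without the first wild-type library (-0.38, edgeR adjusted p 0.0577). The summed level of the 3 genes, 960 and 989 CPM in trf4Δ against 1014 and 939 CPM in the wild type, overlapped.

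Of 5 other genes whose enzymes use UDP-glucose, 4 rose and 1 fell, beside 31.3% and 28.9% of all features tested. GSC2, a glucan synthase subunit gene, had counts of 79871 and 83413 in trf4Δ and of 8104 and 7577 in wild-type cells, and rose by 3.14 (SE 0.10, edgeR adjusted p 2.02e-06). This value was above that of every glycogen gene, but its 95% interval (2.91 to 3.38) overlapped that of PGM2 (2.71 to 3.42). Without the first trf4Δ library the value was 3.17 for GSC2 and 3.25 for PGM2. TPS1, which makes trehalose 6-phosphate, rose by 1.37 (SE 0.09). FKS1, the other glucan synthase gene here, rose by 0.42 and ATG26, a sterol glucosyltransferase gene, by 0.32. FKS1 was not called without the first wild-type library (0.47, edgeR adjusted p 0.0652) or the second (0.38, 0.122). ATG26 was not called without the first (0.34, edgeR adjusted p 0.0716) or second (0.30, 0.0952) trf4Δ library or the second wild-type library (0.23, 0.154). ALG5, which makes dolichyl-phosphate glucose for glycosylation in the endoplasmic reticulum, fell by 0.86 (SE 0.09). UGP1, which supplies all of them, had no call beside these changes.

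Among 9 genes of nutrient signalling and stress transcription, 3 rose, 2 fell and 4 were not called, with a median of 0.18. MSN4, one of the paired activators that bind the stress response element, had 8418 and 9385 counts in the trf4Δ libraries, compared with 2846 and 2997 in wild-type cells, and rose by 1.37 (SE 0.10). Its partner MSN2 had 5536 and 4467 counts against 3821 and 3684, with a value of 0.18 (edgeR adjusted p 0.219) that passed only without the second trf4Δ library (0.32, edgeR adjusted p 0.044) or with library size alone (0.50). Of genes for catalytic subunits of protein kinase A, TPK2 rose by 0.86 and TPK3 fell by 0.64. RIM15, a kinase gene needed for entry into stationary phase, rose by 0.82. SNF4, the activating subunit gene of the Snf1 kinase, fell by 0.58, a call lost with library size alone (-0.26, edgeR adjusted p 0.0608). SNF1 (-0.10), GIS1 (0.0032) and BCY1 (0.30) did not pass. BCY1 passed without the second trf4Δ library (0.42, edgeR adjusted p 0.0294), with at least 10 counts in every library (0.32, 0.0413) and with library size alone (0.62, 0.00328), and GIS1 with library size alone (0.32, 0.0146). Over the 6 related lists together, 18 of 31 genes rose and 5 fell, beside 31.3% and 28.9% of all features.

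**Figure D4:**
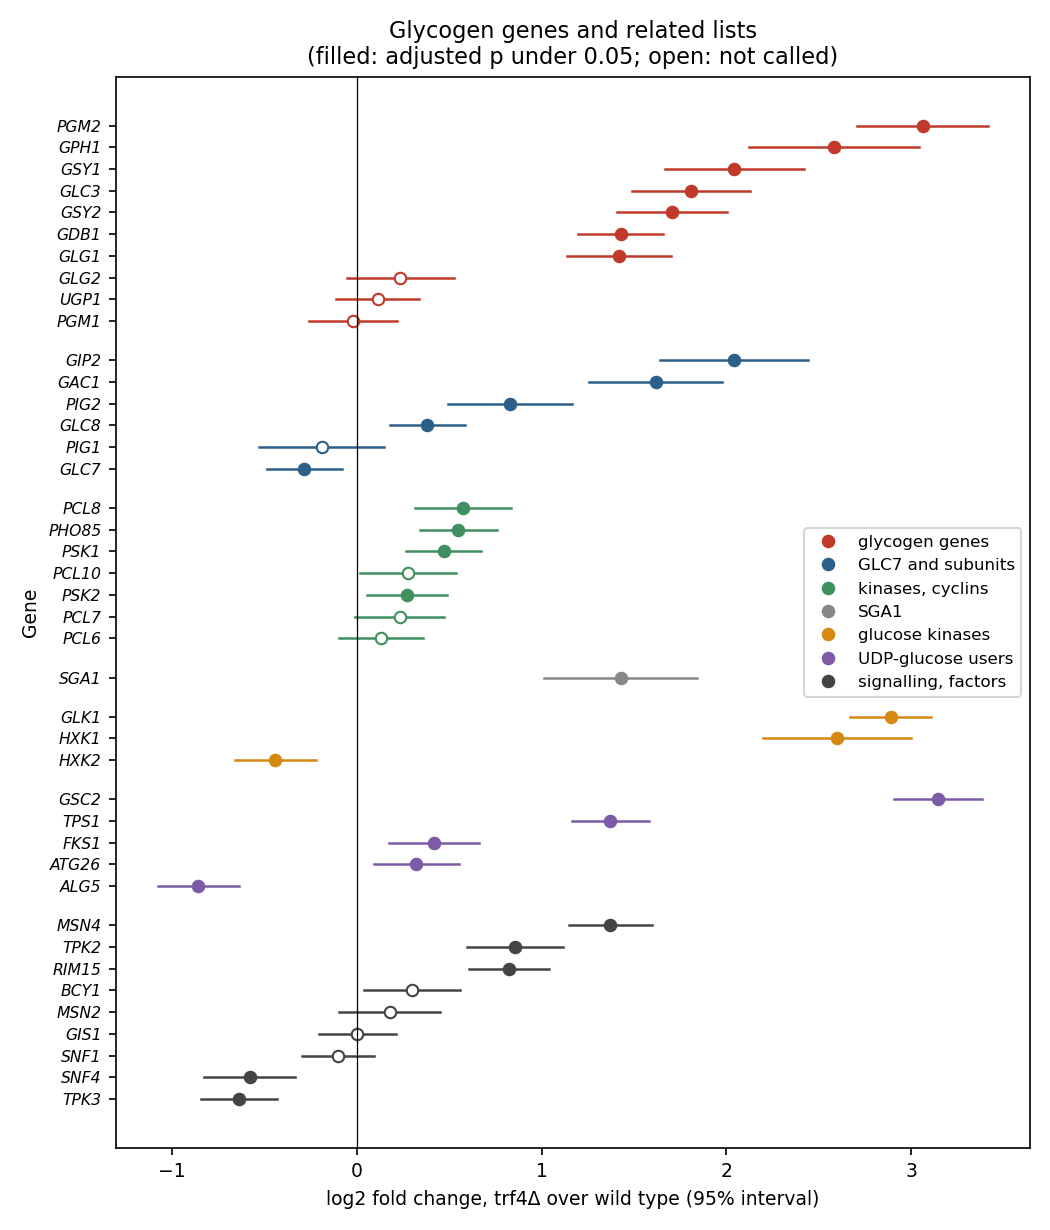
log2 fold change of trf4Δ over the wild type with its 95% interval (lines) for the 10 glycogen genes and the 31 genes of the related lists, filled where the adjusted p was under 0.05. The 7 filled glycogen genes lie at 1.42 or above, while the kinase and cyclin genes lie at 0.57 or below.

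Upstream letters were counted in the 600 bases before each start codon, on either strand. AGGGG was found before 9 of the 10 genes and before 39.7% of 5999 protein-coding genes with a window of that length. At least 3 matches were found before 5 of the 10 genes and before 2.43% of all. The counts were 6 for PGM2, 5 for UGP1, 3 for GPH1, GLC3 and PGM1, 2 for GSY1, GSY2 and GLG2, 1 for GDB1 and 0 for GLG1. A window of this length can reach into the next gene, and in UGP1 all 5 matches lay beyond the 169 bases that separate it from AIM26. Counted only up to the next annotated gene, PGM2 had 5 matches, PGM1 had 1 and UGP1 and GLG2 had 0, where 29.1% of all genes had at least 1. On that count 6 of the 7 genes that rose and 1 of the 3 without a call had a match, and GLG1 rose with 0. Only 41 bases were searched for GLG2 and 169 for UGP1, beside 469 for PGM1 and 457 to 600 for the genes that rose. The called and uncalled genes were thus not searched over like lengths, and this contrast was not tested. AGGGAT, the letters of the post-diauxic shift element, which are distinct from AGGGG, was found before 3 genes (GSY2, GLG1 and UGP1) and before 18.2% of all. The core of sites for the repressor Mig1 (GGGG preceded by GC, GT, CC or CT, whose ends can overlap an AGGGG match) was found before 7 genes and before 27.8% of all. Counted only up to the next annotated gene, AGGGAT was found before 2 genes and the Mig1 core before 6, UGP1 being in neither set. The share over all genes was not counted that way for these letters. A match is a run of letters and not evidence of binding.

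Genes next to the 10 were listed on each side. Of 20 neighbours, 17 were tested, of which 9 rose and 3 fell, beside 31.3% and 28.9% of all features tested. Their median log2 fold change was 0.33, so rises were also frequent around the glycogen genes. Falls were found for RPS21A (-0.96), upstream of GLG1, and for TIF1 and TIF2, and smaller rises for CMK1 (0.48), AIP5 (0.46), YLR257W (0.45), DPM1 and YPK1, all named after their values were seen. At least 2-fold rises, called for 15.5% of all features tested, were found for YPK2 (2.72), UBC8 (1.56), AIM26 (1.37) and YMR105W-A (1.34). YMR105W-A had at most 156 counts in any library. YPK2, a protein kinase gene 443 bases downstream of PGM2, had counts of 18340 and 20015 in trf4Δ and of 2625 and 2314 in wild-type cells. Its paralog YPK1 lies downstream of PGM1 and had a value of 0.31 (edgeR adjusted p 0.0144), which was not called without the second trf4Δ library (0.30, edgeR adjusted p 0.0568) or the second wild-type library (0.27, 0.0911). Whether the changes of these neighbours differ from those of PGM2 and PGM1 was not tested. GLG1 lies beside TIF1 and GLG2 beside TIF2, the gene copies for translation factor eIF4A. TIF1 fell by 0.90 and TIF2 by 0.70, whereas GLG1 rose, and reads of TIF1 and TIF2 may be shared between these near-identical copies. UBC8, upstream of GLC3 on the same strand, rose beside it, from 684 and 566 counts to 2264 and 2067. AIM26 had at most 84 counts in any library and was not called without the second wild-type library (1.12, edgeR adjusted p 0.0954), and DPM1, upstream of GDB1, rose by 0.33 but was not called without the first trf4Δ library (0.22, edgeR adjusted p 0.11), the first wild-type library (0.34, 0.0893) or the second (0.33, 0.0933). Whether counting used strand is not given in the sources used here, so reads from the opposite strand of any of these genes cannot be told apart.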

How the data were processed

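The authors deposited whole-number counts per feature for 4 libraries, without normalisation. Per the labels, total RNA was depleted of ribosomal RNA and ScriptSeq v2 libraries were sequenced for 76 bases in paired-end mode. The submitters' processing notes name STAR 2.5.3 and sacCer3. The counting program and its use of strand are not given in the sources used here. Groups followed the genotype labels, and libraries were numbered within groups in accession order.

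Features were filtered with filterByExpr, scaled by TMM (factors 1.12 and 1.11 for trf4Δ, 0.903 and 0.886 for the wild type) and tested with glmQLFit and glmQLFTest in edgeR 4.0.16 (R 4.3.3), two-sided, with Benjamini-Hochberg adjustment over 6372 features. The SE was derived from the F statistic. The test was tried on counts simulated from the wild-type means, with the same set spread for every gene. Of 199 changed among 6244 genes, 81.9% were recovered (97.7% of those changed at least 2-fold), with 2.4% false calls. In the data 60.1% of features were called, far more than were changed in the simulation, so these rates need not hold for this comparison. Lengths, neighbours and sequences came from RefSeq R64, which matched 6048 features by systematic name. Levels per length used coding length. All 10 genes, the related lists and neighbours beyond a 2-fold change were named by rule, and other neighbours after their values were seen. A further gene planned for the signalling list is not reported here. The genes and lists were chosen with earlier results of these data known. Alternatives were size factors of the DESeq2 type, library size alone, no filter, a minimum of 10 counts per library, robust fitting, DESeq2 1.42.0, a threshold of 0.01, 0.5 counts added to ratios, and leaving out each library. Figures used matplotlib 3.10.9.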

Additional observations from a re-analysis of the deposited data

How the results depend on the processing

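No paired analysis was possible because the labels give no replicate numbers that the groups share. The 7 genes that rose kept their direction and call under each of the 10 alternative fits, with adjusted p at most 0.0015, and 7 were called at a threshold of 0.01. Their lowest values were 2.84 (PGM2), 2.24 (GPH1), 1.84 (GSY1), 1.64 (GLC3), 1.52 (GSY2), 1.37 (GDB1) and 1.32 (GLG1). Library size alone raised the median of the 10 genes to 1.89 and called 10 genes, against 7 in the other fits. It also turned the direction of PGM1 (0.30), GLC7 (0.038), PIG1 (0.13), SNF1 (0.22) and the neighbours HSP60 (0.055) and SGV1 (0.23), whose TMM values were -0.02, -0.28, -0.19, -0.10, -0.27 and -0.09; this follows from the upward shift of all features under that scaling. GIS1, which was 0.32 and called with library size alone, was -0.0103 with size factors of the DESeq2 type, -0.0027 without a filter and -0.015 with DESeq2. With a library left out, PGM1 ranged from -0.132 to 0.081 and GIS1 from -0.027 to 0.031. In those fits the group left with 1 library is assumed to vary as the other does. The differences in isozyme ratio ranged from -0.42 to -0.25 (GSY2 to GSY1), 1.05 to 1.32 (GLG1 to GLG2) and 2.76 to 3.39 (PGM2 to PGM1) with a library left out. With 2 libraries per group, changes within the intervals printed for GLG2, UGP1 and PGM1 could not be resolved. Each of the 10 genes had at least 386 counts in every library.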
